A study of Mus musculus with 125 samples.

Results

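The 10 heat shock genes described here were measured in single mouse embryos, and are 9 chaperones and the transcription factor Hsf1. They were chosen by name, as rows of a table of estimated counts per gene, and all 10 were found among its 43421 genes. The chaperones are the inducible HSP70 pair Hspa1a and Hspa1b, the constitutive HSP70 Hspa8, the HSP110 Hsph1, the endoplasmic reticulum HSP70 Hspa5, the HSP90 pair Hsp90aa1 and Hsp90ab1, and the mitochondrial pair Hspd1 and Hspe1. Each value below is in CPM, the share of an embryo's counts that fell on the gene, scaled to 1000000 counts.

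The study compared embryos from zygotes with 1 pronucleus (1PN) and embryos from zygotes with 2 pronuclei (2PN). All embryos were collected at the 2-cell stage, 34 h after fertilization, from zygotes selected at 10 h, and the second polar body had been removed. Hybrids of the inbred mouse strains JF1/Ms and C57BL/6 were made in both directions, and the labels do not say which strain was the mother. Some 1PN embryos were called parthenotes in silico by the submitters. These are named uniparental 1PN below. The sources do not describe how that call was made. If it holds, such an embryo has the genome of 1 strain, while the 2PN hybrids have both. Strain and uniparental origin then cannot be told apart in comparisons of these groups, or in how they differ between crosses. The cross JF1/Ms x C57BL/6 (J×B) gave 4 uniparental 1PN, 3 other 1PN and 21 2PN embryos. The cross C57BL/6 x JF1/Ms (B×J) gave 8 uniparental 1PN, 11 other 1PN and 43 2PN embryos. A further 31 embryos are labelled parthenotes of C57BL/6, and their genetic background differs from that of the B×J 2PN embryos they are set against. These embryos make up the 7 groups. No label ties embryos to a litter or a day, so each p-value measures spread among single embryos only.

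Chaperones of the HSP70 and HSP90 families bind unfolded or unfinished proteins and release them in cycles driven by ATP, helped by co-chaperones. The chaperonin made from Hspd1, with its lid Hspe1, folds proteins inside mitochondria. Under stress HSF1 binds heat shock elements, which are inverted repeats of GAA units, and switches on chaperone genes. In the mouse Hspa1a and Hspa1b are also among the early transcripts of the embryo's own genome without any heat shock, and Hsf1 is a gene whose oocyte product the early embryo needs.

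Promoter windows of RefSeq (build GRCm38.p6, 250 bases before and 50 after a gene's start) were given for 6 of the 10 genes: Hspa1a, Hspa1b, Hspa5, Hspd1, Hspe1 and Hsph1. The windows were searched on both strands for 2 adjoining heat shock units, GAANNTTC or TTCNNGAA, and for 3 units, GAANNTTC followed by NNGAA or TTCNNGAA followed by NNTTC, and overlapping matches were all counted. Any 3-unit match holds 2-unit matches. Of 32851 windows of all genes, 15.1% held a 2-unit match and 0.603% a 3-unit match. Hspa1a and Hspa1b are shown in full because they are near-identical neighbours on the minus strand of chromosome 17. Their 250 bases upstream were alike at 247 positions (98.8%). They differed by C44T, T47C and T249G, where the base of Hspa1a comes first and positions count from 1 at the 5′ end. The upstream sequence of Hspa1a is chr17:34972157-34972406 and that of Hspa1b is chr17:34959239-34959488. Capitals mark their only 2-unit match, whose first base lies 104 bases before the start.
Hspa1a: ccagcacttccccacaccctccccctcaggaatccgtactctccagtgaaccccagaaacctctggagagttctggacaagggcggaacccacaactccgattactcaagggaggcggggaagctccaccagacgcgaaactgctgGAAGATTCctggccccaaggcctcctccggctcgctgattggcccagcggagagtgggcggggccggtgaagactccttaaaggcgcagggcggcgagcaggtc
Hspa1b: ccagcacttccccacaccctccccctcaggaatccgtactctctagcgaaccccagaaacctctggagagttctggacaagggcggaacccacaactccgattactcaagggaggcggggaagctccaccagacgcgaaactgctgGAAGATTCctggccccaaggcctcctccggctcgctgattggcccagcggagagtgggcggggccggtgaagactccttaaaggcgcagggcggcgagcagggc
Hspe1 and Hsph1 are shown because their windows held 3-unit matches, 2 in Hspe1 and 1 in Hsph1. Hspe1 starts head to head with Hspd1, the spans of the 2 genes overlap by 96 bases, and 1 of the 2 windows of Hspd1 holds the same matches. The Hspe1 stretch lies inside the span of Hspd1, at chr1:55088053-55088082 on the plus strand, with the run of overlapping matches in capitals. The Hsph1 stretch is chr5:149636351-149636380 on the minus strand, with its first 2-unit match in capitals. It lies before both of the gene starts on which the RefSeq windows of Hsph1 are set. In the gene annotation, whose start is farther upstream, it falls inside the span of the gene. The 3-unit match lies after both RefSeq starts and is not shown.
Hspe1: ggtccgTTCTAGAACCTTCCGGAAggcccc
Hsph1: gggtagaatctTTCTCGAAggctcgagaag
The Hspa5 window held neither match. These matches describe the letters in the windows only.

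The kept libraries held 533276 to 4887274 counts, with a median of 3392406, and 2 J×B 2PN libraries held under 1000000. Transcripts known for the 2-cell stage (22 genes in the table, such as Zscan4d) and transcripts left from the oocyte (21 genes, such as Gdf9) were summed as a check of the labelled stage. Both sets had counts in all 7 groups. Of 15 cumulus and granulosa markers, 6 had counts in J×B uniparental 1PN, 5 in J×B 1PN and 13 or 14 in each other group, and Fshr was at 0 in every embryo of 6 groups. Embryos 1 and 2 of J×B uniparental 1PN stood apart. Their 2-cell sums were 34.3 and 460 CPM, against 9620 and 8790 CPM in embryos 3 and 7 of that group. Their oocyte sums were 32600 and 29600 CPM, against 6230 and 6340 CPM in embryos 3 and 7. Embryo 8 of J×B 2PN also stood apart in several of the genes described here. Embryo 9 of B×J 1PN had a 2-cell sum of 28800 CPM, the highest of its group. Calls between groups that were lost without these embryos are named for the 10 genes, and the other chaperones of J×B uniparental 1PN are also given without embryos 1 and 2.

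Differences between groups were tested with edgeR's quasi-likelihood test on all 24380 genes that passed a filter on low counts. All 10 heat shock genes passed. A gene is called higher or lower where its p, with Benjamini-Hochberg adjustment over all genes tested, is under 0.05. Every adjusted p below is from this test unless another is named, and a fold change is given on the log2 scale with its SE. Because CPM are shares, more of 1 transcript and less of all other RNA in an embryo cannot be told apart.

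In edgeR's test of all embryos, Hspa5 and Hsp90ab1 were called lower than in 2PN embryos in both uniparental groups and in parthenotes. The mitochondrial co-chaperonin Hspe1 was called higher in the same comparisons. Some of these calls were lost in other settings, as given here and for each gene below. In J×B uniparental 1PN against J×B 2PN, 6 of the 10 genes were called, 2 higher (Hspe1, Hsf1) and 4 lower (Hspa5, Hsp90aa1, Hsp90ab1, Hsph1), where 31.7% of all genes tested were called, 11% higher and 20.7% lower. Without embryos 1 and 2 of the uniparental group, 1 of these calls was left, that of Hspe1. In that setting 8.99% of all genes tested were called, 3.12% higher and 5.86% lower. With the 2 groups fitted alone, the calls of Hspe1 and Hsph1 were left, and the share of all genes called in that fit is not given here. In B×J uniparental 1PN against B×J 2PN, 4 of 10 were called, 1 higher (Hspe1) and 3 lower (Hspa8, Hspa5, Hsp90ab1), against 22.4% of all genes tested, 12.1% higher and 10.2% lower. In C57BL/6 parthenotes against B×J 2PN, 6 of 10 were called, 1 higher (Hspe1) and 5 lower (Hspa8, Hspa5, Hsp90aa1, Hsp90ab1, Hsph1), against 44.4% of all genes tested, 24.8% higher and 19.6% lower. The last 2 comparisons share their 43 2PN embryos. Whether the 10 genes were called more often than other genes was not tested.

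Embryos with 1 pronucleus that were not called uniparental gave no call among the 10 genes in edgeR or in DESeq2. In B×J 1PN against B×J 2PN, 0 of 10 were called, against 0.607% of all genes tested, 0.582% higher and 0.0246% lower. In J×B 1PN against J×B 2PN, 0 of 10 were called, against 0.0369% of all genes, 0.0205% higher and 0.0164% lower. In both comparisons 0 of the 10 had an unadjusted p under 0.05. The B×J intervals were widest for Hspa1a, a log2 fold change of -0.06 with an approximate 95% interval of -0.998 to 0.89, and narrowest for Hsp90aa1, at -0.10 with an interval of -0.45 to 0.25. With 3 embryos, the J×B intervals were wider, and for Hspa1a the interval ran from -3.35 to 0.50.

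The 2PN embryos of the 2 crosses gave the most calls. In J×B 2PN against B×J 2PN, 7 of 10 genes were called, 5 higher (Hspa1a, Hspa1b, Hspa5, Hsp90aa1, Hsf1) and 2 lower (Hspa8, Hspd1), against 40.2% of all genes tested, 19.1% higher and 21.1% lower. B×J uniparental 1PN against B×J 1PN gave 2 calls of 10, both lower (Hspa5, Hsp90ab1), against 10.7% of all genes, 5.07% higher and 5.67% lower. B×J uniparental 1PN against C57BL/6 parthenotes gave 0 of 10, against 1.87% of all genes, 1.33% higher and 0.541% lower. The DESeq2 test also gave 0 there, and Hspa5 and Hspd1 had an unadjusted p under 0.05 in edgeR. With the 2 groups fitted alone, Hspa5 was called lower (-0.71, adjusted p = 0.00493).

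**Figure D1:**
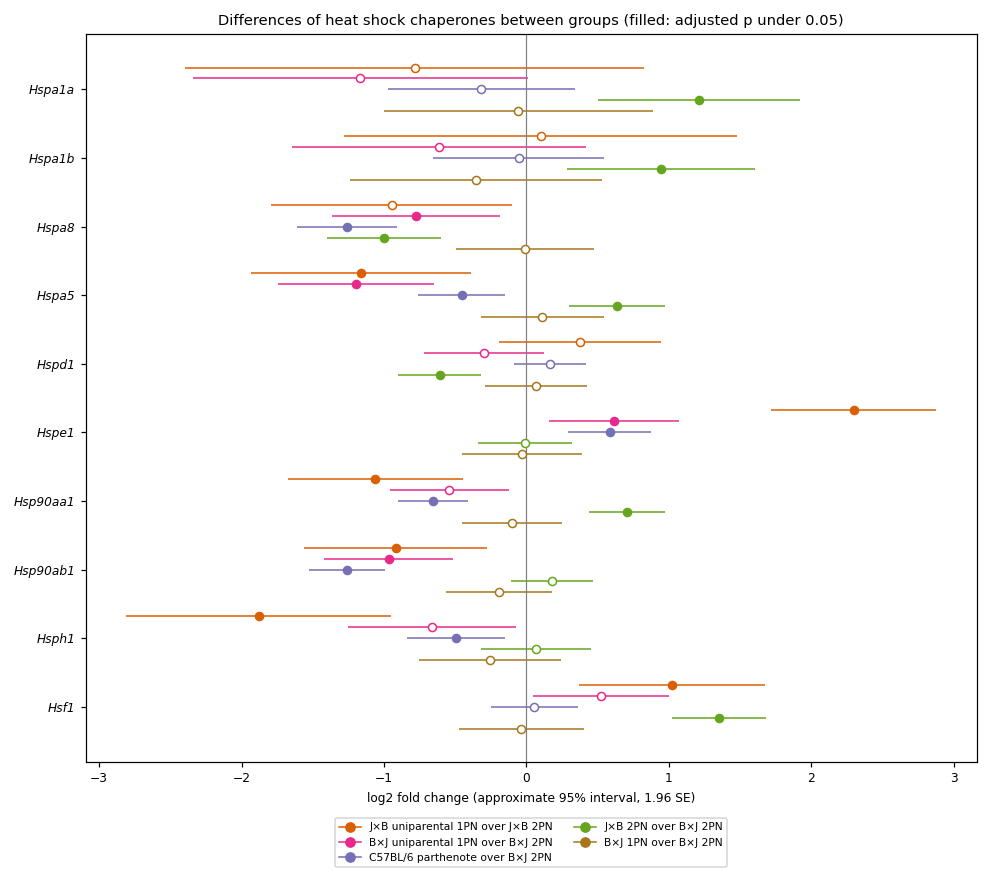
Log2 fold changes of the 10 heat shock genes (rows) in 5 comparisons (colours), each with an approximate 95% interval; filled points have an adjusted p under 0.05 in edgeR's test. Hspe1 of J×B uniparental 1PN lies farthest to the right at 2.30, Hsph1 of the same comparison farthest to the left at -1.88, and no point of B×J 1PN over B×J 2PN is filled.

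The inducible HSP70 genes Hspa1a (ENSMUSG00000091971, chr17:34969359-34972156) and Hspa1b (ENSMUSG00000090877, chr17:34956429-34959238) encode the same kind of stress chaperone and lie 10120 bases apart. Of their values above 0, 59 of 118 for Hspa1a and 53 of 122 (43.4%) for Hspa1b were not whole numbers, against 28.4% over all genes. How reads were split between the 2 copies is uncertain, and the sum of both is given too. Hspa1a had 6.33 to 89.3 CPM in J×B 2PN embryos, with a median of 20.1 CPM, against 0.994 to 37.5 CPM in B×J 2PN embryos, with a median of 6.87 CPM. The groups overlap, but 20 of 21 J×B embryos lie above the B×J median. The log2 fold change was 1.21 ± 0.36 (adjusted p = 0.00459). Hspa1b had a median of 32.1 CPM in J×B 2PN embryos, against 15.9 CPM in B×J 2PN embryos, a log2 fold change of 0.95 ± 0.34 (adjusted p = 0.0176), with 18 of 21 embryos above the B×J median. The copies together had a median of 56.7 CPM in J×B 2PN embryos and 21.3 CPM in B×J 2PN embryos, and counted as 1 gene they differed by 1.04 on the log2 scale (adjusted p = 0.00474). Embryo 8 of J×B 2PN had the most of both copies, 89.3 CPM of Hspa1a and 128 CPM of Hspa1b. Without it Hspa1a was still called, at 0.95 (adjusted p = 0.0297), and Hspa1b was not, at 0.69 (adjusted p = 0.0946).

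Neither inducible copy was called in a uniparental group or in parthenotes, and both varied widely among embryos of a group. Hspa1a of J×B uniparental 1PN had 0, 0, 45.6 and 17.5 CPM in embryos 1, 2, 3 and 7, against 6.33 to 89.3 CPM in J×B 2PN embryos. The 2 values of 0 lie below every J×B 2PN embryo, and 3 counts would have given 0.796 and 0.852 CPM in those libraries. Such limits cover counting error only, as PCR copies of 1 molecule are not told apart. Hspa1b had 0, 3.98, 122 and 52.9 CPM in the same 4 embryos, against 9.47 to 128 CPM in J×B 2PN embryos. The embryos with Hspa1a at 0 are those whose 2-cell sums were 34.3 and 460 CPM. The log2 fold changes of -0.79 ± 0.82 for Hspa1a (adjusted p = 0.477) and 0.10 ± 0.70 for Hspa1b (adjusted p = 0.949) were not called. With limma voom, which weights each value on the log scale, both were called lower, at -3.76 for Hspa1a (adjusted p = 0.00135) and -2.88 for Hspa1b (adjusted p = 0.0119). Hspa1a of B×J uniparental 1PN had 0 to 20.1 CPM, with a median of 3.95 CPM, against a median of 6.87 CPM in B×J 2PN embryos. It was at 0 in embryos 10 and 18, and the difference of -1.16 ± 0.60 missed the threshold (adjusted p = 0.146), which limma voom passed (-1.86, adjusted p = 0.0338). In parthenotes the median was 8.52 CPM for Hspa1a and 21.9 CPM for Hspa1b, against 6.87 and 15.9 CPM in B×J 2PN embryos. Neither was called, and the log2 fold changes of -0.32 ± 0.34 and -0.05 ± 0.31 have the other sign, since the test compares means after TMM scaling. The J×B 1PN embryos 4, 5 and 6 had 17.1, 8.59 and 0.169 CPM of Hspa1a and 25.98, 13.7 and 0.339 CPM of Hspa1b. In embryo 6, which had almost none of either copy, the 2-cell sum was 9370 CPM, within the range of its group. In order of medians, J×B 2PN embryos were highest and B×J uniparental 1PN embryos lowest for both copies, and the quartile ranges of the 5 groups between them overlapped for Hspa1a.

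**Figure D2:**
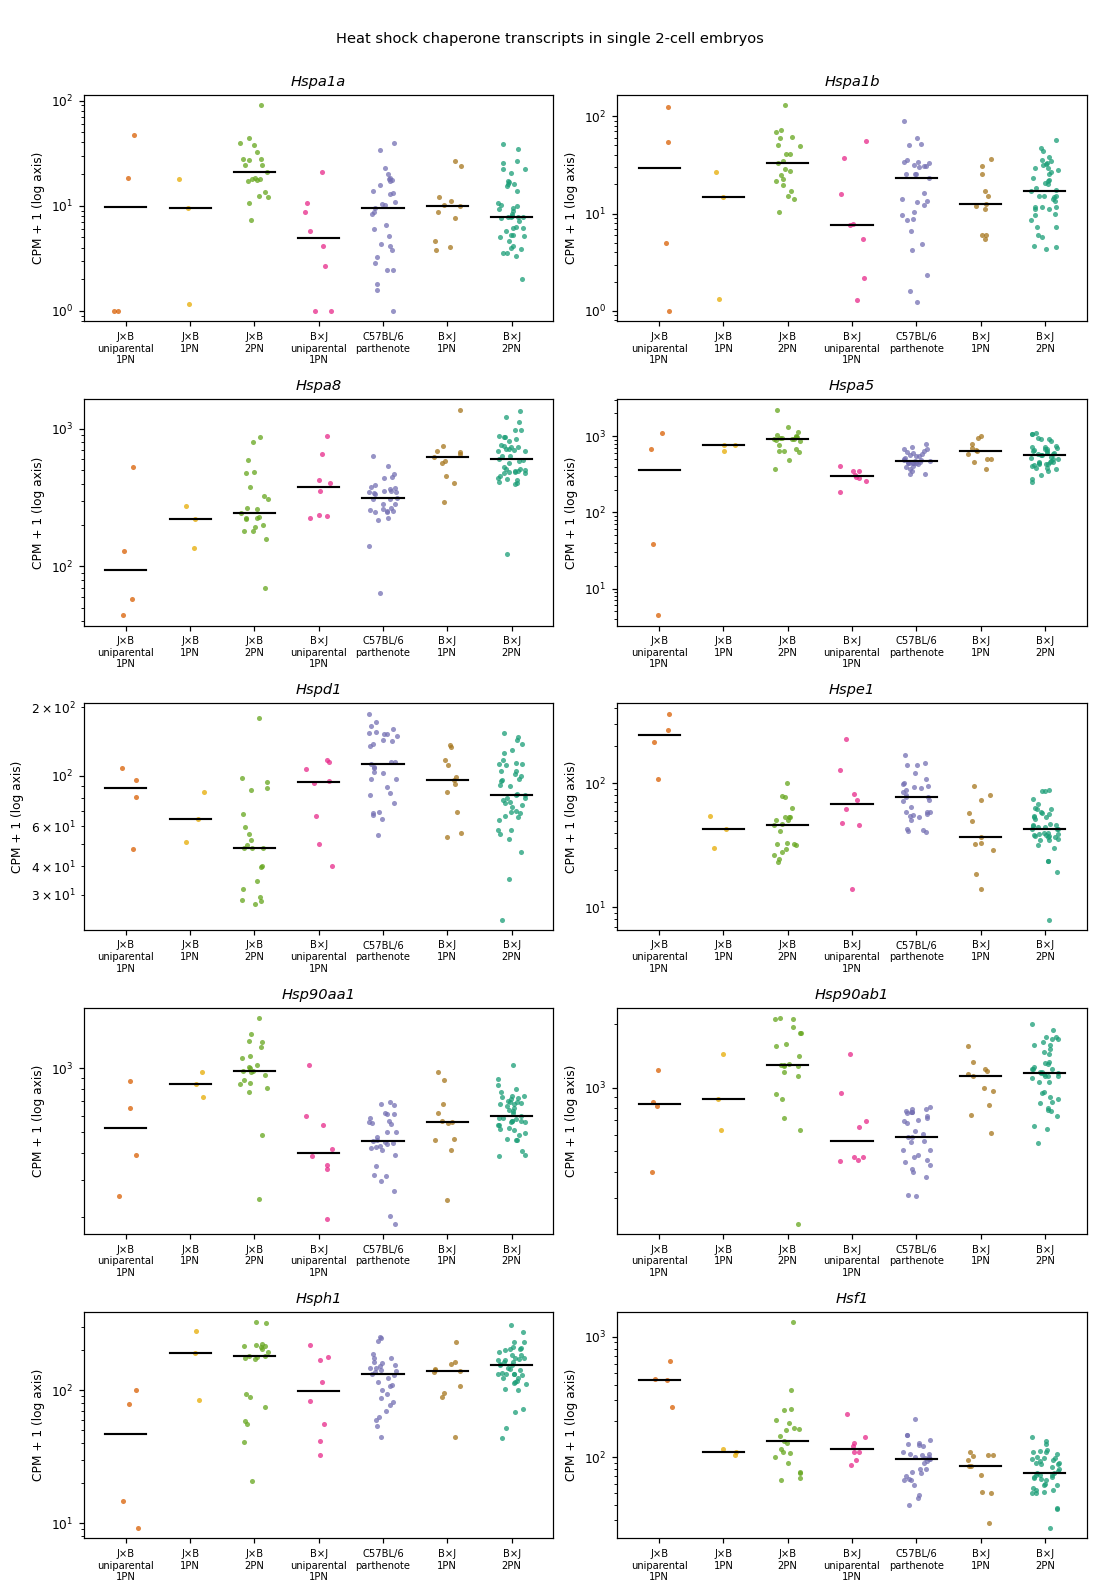
CPM plus 1 (log axis) of each of the 10 genes in every kept embryo, by group, with the group median as a bar. The 4 points of Hspe1 in J×B uniparental 1PN lie above all 21 of J×B 2PN, and in the same group 2 points of Hspa5 lie far below the rest.

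Hspa8 (ENSMUSG00000015656, chr9:40801276-40805202) is the constitutive cytosolic HSP70, present in unstressed cells. It was lower wherever a group was set against B×J 2PN embryos, except in B×J 1PN. J×B 2PN embryos had 68.4 to 878 CPM, with a median of 244 CPM, against 121.2 to 1340 CPM in B×J 2PN embryos, with a median of 598 CPM. Of the 21 J×B embryos, 19 lie below the B×J median, and the log2 fold change was -1.002 ± 0.20 (adjusted p = 3.07e-05). Parthenotes had a median of 315 CPM, against 598 CPM in B×J 2PN embryos, and 30 of 31 lie below the B×J 2PN median (-1.26 ± 0.18, adjusted p = 3.34e-09). B×J uniparental 1PN embryos had 223 to 884 CPM, with a median of 376 CPM, against 598 CPM in B×J 2PN embryos. Their difference of -0.78 ± 0.30 lay at the threshold (adjusted p = 0.0488), and it was lost when any 1 of 6 of the 8 uniparental embryos was left out (adjusted p of 0.0735 to 0.128), without embryo 9 of B×J 1PN (0.0617), without J×B uniparental embryos 1 and 2 (0.0536), with no filter (0.0662), with DESeq2 (0.0912) and with DESeq2 size factors (-0.59, adjusted p = 0.109). The J×B uniparental embryos 1, 2, 3 and 7 had 42.99, 56.6, 523 and 128 CPM, against a median of 244 CPM in J×B 2PN embryos. The first 2 lie below all J×B 2PN embryos, and the difference of -0.95 ± 0.43 was not called (adjusted p = 0.0807). It was called with limma voom (-1.645, adjusted p = 0.0057), with libraries of at least 1000000 counts (-1.045, adjusted p = 0.0457) and without embryo 3 (-2.20, adjusted p = 0.000298), and without embryos 1 and 2 it was -0.10 (adjusted p = 0.946). The J×B 1PN embryos had 136, 219 and 274 CPM. The B×J 1PN median of 622 CPM and the B×J 2PN median of 598 CPM stood at the top of the order and differed by less than their spread (-0.01 ± 0.25).

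Hsph1 (ENSMUSG00000029657, chr5:149616843-149636498) encodes an HSP110, which exchanges the nucleotide of HSP70. It was lowest in J×B uniparental 1PN, where embryos 1, 2, 3 and 7 had 8.23, 13.6, 78.3 and 99.8 CPM, against 19.99 to 324 CPM in J×B 2PN embryos, with a median of 180 CPM. All 4 lie below that median and 2 lie below every J×B 2PN embryo, and the log2 fold change was -1.88 ± 0.47 (adjusted p = 0.00101). Without embryos 1 and 2 it was -0.94 and no longer called (adjusted p = 0.33). In parthenotes the median was 132 CPM, against 153 CPM in B×J 2PN embryos (-0.50 ± 0.18, adjusted p = 0.0165). That call was lost with DESeq2 size factors (-0.29, adjusted p = 0.156) and without embryo 9 of B×J 1PN (-0.39, adjusted p = 0.0548). Among B×J uniparental embryos 31.9 to 220 CPM were counted, with a median of 98.5 CPM, and the difference of -0.66 ± 0.30 was not called (adjusted p = 0.0969), but limma voom called it (-0.88, adjusted p = 0.0243). Between the 2PN embryos of the 2 crosses Hsph1 was not called (0.07 ± 0.20, interval -0.32 to 0.45).

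Hspa5 (ENSMUSG00000026864, chr2:34772090-34776529) encodes BiP, the HSP70 of the endoplasmic reticulum and a target of the unfolded protein response. It was lower in the B×J uniparental embryos, which had 184 to 410 CPM, with a median of 301 CPM, against 250 to 1100 CPM in B×J 2PN embryos, with a median of 562 CPM. All 8 uniparental embryos lie below the 2PN median. The log2 fold change was -1.20 ± 0.28 (adjusted p = 0.000914). Set against the 11 B×J 1PN embryos, with a median of 636 CPM, the difference was -1.31 ± 0.32 (adjusted p = 0.00404), and 7 of 8 lie below the lowest of them. Set against parthenotes, with a median of 477 CPM, 5 of 8 lie below the lowest of them, and the difference of -0.74 ± 0.28 was not called (adjusted p = 0.136). It was called with the 2 groups fitted alone, at -0.71 (adjusted p = 0.00493), and without embryos 1 and 2 of J×B uniparental 1PN, at -0.76 (adjusted p = 0.0189). Those embryos are in neither group but enter the spread that all groups share. Parthenotes against B×J 2PN embryos gave -0.46 ± 0.16 (adjusted p = 0.0129), with 22 of 31 below the B×J 2PN median. That call was lost with DESeq2 size factors (-0.26, adjusted p = 0.144) and without embryo 9 of B×J 1PN (-0.36, adjusted p = 0.0536).

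The Hspa5 values of J×B uniparental 1PN lay far apart. Embryos 1 and 2 had 3.45 and 37.2 CPM and embryos 3 and 7 had 1098 and 687 CPM, against 376 to 2250 CPM in J×B 2PN embryos, with a median of 931 CPM. The first pair lies below every embryo of every other group, and the second pair lies inside the J×B 2PN range. The log2 fold change of all 4 was -1.16 ± 0.40 (adjusted p = 0.0169), and without embryos 1 and 2 it was -0.12 (adjusted p = 0.874). Hspa5 was higher in J×B 2PN than in B×J 2PN embryos, with medians of 931 and 562 CPM, by 0.64 ± 0.17 (adjusted p = 0.00167). Here 19 of 21 J×B embryos lie above the B×J median, and without embryo 8, which had 2253 CPM, the difference was 0.45 (adjusted p = 0.0263).

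The HSP90 genes Hsp90aa1 (ENSMUSG00000021270, chr12:110691036-110696395), the inducible form, and Hsp90ab1 (ENSMUSG00000023944, chr17:45567778-45573261), the constitutive form, both fell in parthenotes. Hsp90ab1 had 307 to 808 CPM in parthenotes, with a median of 584 CPM, against 549 to 2000 CPM in B×J 2PN embryos, with a median of 1170 CPM. All 31 parthenotes lie below the 2PN median and 12 below every 2PN embryo, and the log2 fold change was -1.26 ± 0.14 (adjusted p = 7.84e-14). B×J uniparental 1PN embryos had 451 to 1440 CPM of Hsp90ab1, with a median of 559 CPM, and 7 of 8 lie below the B×J 2PN median (-0.97 ± 0.23, adjusted p = 0.00123). The exception, embryo 14, had 1442 CPM of Hsp90ab1 and also the most Hsp90aa1 of its group. Against B×J 1PN embryos, with a median of 1130 CPM, the difference was -0.77 ± 0.26 (adjusted p = 0.0428), and leaving out any 1 of 6 of the 8 uniparental embryos, or embryo 9 of B×J 1PN (-0.63, adjusted p = 0.0958), ended the call. The J×B uniparental embryos 1, 2, 3 and 7 had Hsp90ab1 at 1210, 399, 858 and 815 CPM, against a median of 1290 CPM in J×B 2PN embryos. All 4 lie below that median but inside the J×B 2PN range (-0.92 ± 0.33, adjusted p = 0.0233), and the call was lost without embryos 1 and 2 (-0.79, adjusted p = 0.273) and with DESeq2 size factors (-0.51, adjusted p = 0.16). Hsp90ab1 was not called between the 2PN embryos of the 2 crosses (0.18 ± 0.15, interval -0.11 to 0.47).

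Hsp90aa1 was lower in parthenotes and in J×B uniparental embryos, and it differed between the crosses. Parthenotes had a median of 456 CPM, against 597 CPM in B×J 2PN embryos (-0.66 ± 0.13, adjusted p = 7.64e-06), with 25 of 31 below the 2PN median. B×J uniparental values ran over 194.9 to 1041 CPM, with a median of 400 CPM, and the difference from B×J 2PN of -0.54 ± 0.21 just missed the threshold (adjusted p = 0.0528). Without embryo 14 it was -0.88 (adjusted p = 0.00188), and it was also called with limma voom (-0.70, adjusted p = 0.00813), with the 2 groups fitted alone (adjusted p = 0.0286), with libraries of at least 1000000 counts (adjusted p = 0.0442) and without embryo 8 of J×B 2PN (adjusted p = 0.0298). J×B uniparental 1PN embryos 1, 2, 3 and 7 had 392, 249.6, 876 and 652 CPM, against 243 to 1720 CPM in J×B 2PN embryos. All 4 lie below the J×B 2PN median of 975 CPM (-1.06 ± 0.31, adjusted p = 0.00537), and without embryos 1 and 2 the difference was -0.49 (adjusted p = 0.468). J×B 2PN embryos had more Hsp90aa1 than B×J 2PN embryos, with medians of 975 and 597 CPM, by 0.71 ± 0.14 (adjusted p = 1.32e-05). Of the 21, 19 lie above the B×J median and 7 above every B×J 2PN embryo. Embryo 8, the highest of them in Hspa1a, Hspa1b, Hspa5, Hspd1 and Hsf1, had the lowest Hsp90aa1 of the 21, 243 CPM.

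Hspe1 (ENSMUSG00000073676, chr1:55088148-55091317) encodes the lid of the mitochondrial chaperonin. Of the 9 chaperones it alone was called higher in both uniparental groups and in parthenotes. In J×B uniparental 1PN, embryos 1, 2, 3 and 7 had 269, 361, 214 and 107 CPM, against 22.4 to 98.7 CPM in J×B 2PN embryos, with a median of 45.2 CPM. The groups do not overlap, and the log2 fold change was 2.30 ± 0.30 (adjusted p = 7.92e-10). Embryos 1 and 2 are the highest, but embryos 3 and 7 alone still gave 1.76 (adjusted p = 0.00157). B×J uniparental embryos had 13 to 226 CPM, with a median of 66.7 CPM, against 6.98 to 87.2 CPM in B×J 2PN embryos, with a median of 42.1 CPM. Of the 8, 7 lie above the B×J 2PN median, by 0.62 ± 0.23 (adjusted p = 0.0428). The call was lost without embryo 22, which had 226 CPM (0.33, adjusted p = 0.357), or embryo 10, which had 127 CPM (0.43, adjusted p = 0.23), and without embryo 7 (adjusted p = 0.0538) or embryo 19 (adjusted p = 0.0527). limma voom gave 0.38 and no call (adjusted p = 0.25). Parthenotes had 39.1 to 168 CPM, with a median of 76.4 CPM, and 27 of 31 lie above the B×J 2PN median (0.58 ± 0.15, adjusted p = 0.00059).

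The rise of Hspe1 differed between the crosses. The difference from 2PN was larger in J×B than in B×J uniparental embryos by 1.68 ± 0.41 on the log2 scale (adjusted p = 0.00178). In edgeR's test of all embryos Hspe1 alone of the 10 genes was called in that comparison of effects, where 16.6% of all genes tested were called, 3.64% higher and 13% lower. Without embryo 2 of J×B uniparental 1PN the difference was 1.26 (adjusted p = 0.0519), and without embryos 1 and 2 it was 1.06 (adjusted p = 0.258). limma voom called 3 of the 10, Hspe1, Hspa5 (-2.84, adjusted p = 5.61e-05) and Hsph1 (-1.79, adjusted p = 0.0365). The share of all genes that limma voom called is not given here, so that count has no background. For Hspa5 edgeR gave 0.04 (adjusted p = 1). Without embryo 8 of J×B 2PN, edgeR also called Hsf1 (1.05, adjusted p = 0.027). The difference between crosses of the 1PN effect gave 0 of 10 calls in edgeR and in DESeq2, against 0.0205% of all genes, 0.0164% higher and 0.0041% lower, and 0 of 10 had an unadjusted p under 0.05. Between the 2PN embryos of the 2 crosses Hspe1 was not called (-0.01 ± 0.17, interval -0.34 to 0.32). The J×B 1PN embryos 4, 5 and 6 had 29.1, 42.2 and 53.0 CPM, all within the J×B 2PN range. Of the Hspe1 values above 0, 56.5% were not whole. Its 5 listed pseudogenes had medians of 0 CPM and at most 6.5 CPM in any embryo.

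Hspd1 (ENSMUSG00000025980, chr1:55077833-55088243) encodes the barrel of the same chaperonin. It was called neither in the uniparental groups nor in parthenotes. The J×B uniparental embryos 1, 2, 3 and 7 had 94.7, 80.0, 46.7 and 107 CPM, against 26.4 to 178 CPM in J×B 2PN embryos, with a median of 47.2 CPM. The difference of 0.37 ± 0.29 was not called (adjusted p = 0.318), but with DESeq2 size factors it was 0.75 and called (adjusted p = 0.0326). Hspd1 of B×J uniparental 1PN had a median of 93.0 CPM, against 81.6 CPM in B×J 2PN embryos (-0.30 ± 0.21, adjusted p = 0.315). The parthenote median of 112 CPM was the highest of the 7 groups, and 25 of 31 lie above the B×J 2PN median. The difference of 0.17 ± 0.13 was not called (adjusted p = 0.296). With DESeq2 size factors it was 0.38 and called (adjusted p = 0.0108). Hspd1 was lower in J×B 2PN than in B×J 2PN embryos, with medians of 47.2 and 81.6 CPM, by -0.61 ± 0.15 (adjusted p = 0.000521). Without embryo 8, at 178 CPM the highest of the 21, the difference was -0.85. Its pseudogene Hspd1-ps3 had counts in every kept embryo, with a median of 8.73 CPM, and may share reads with Hspd1.

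**Figure D3:**
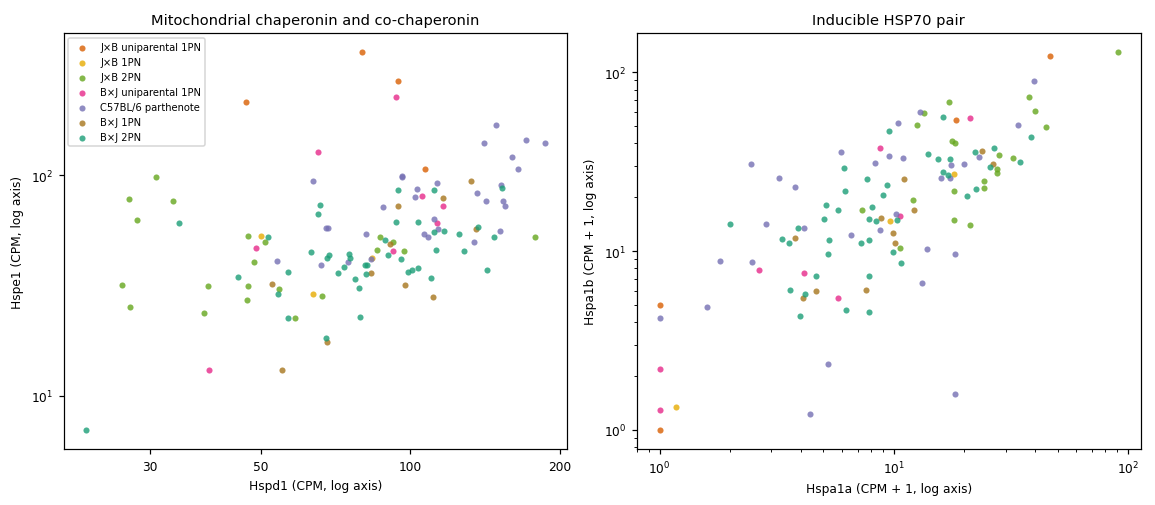
Left, Hspe1 against Hspd1 (CPM, log axes), and right, Hspa1b against Hspa1a (CPM plus 1, log axes), 1 point per embryo, coloured by group. The 4 J×B uniparental embryos lie above the other J×B points on the left at Hspe1 of 107 CPM and more. On the right the 2 inducible copies rise together across embryos, a relation that both tests called in B×J 2PN embryos only.

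Hsf1 (ENSMUSG00000022556, chr15:76477362-76501155) encodes the heat shock transcription factor. It was highest in J×B uniparental 1PN, where embryos 1, 2, 3 and 7 had 444, 630, 260 and 438 CPM, against 64.0 to 1320 CPM in J×B 2PN embryos, with a median of 135 CPM. All 4 lie above that median, and the log2 fold change was 1.02 ± 0.33 (adjusted p = 0.0123). Embryo 8 of J×B 2PN had 1321 CPM, and the next highest of that group had 359 CPM. Without it the difference was 1.61 (adjusted p = 5.11e-07), while without uniparental embryos 1 and 2 it was 0.68 (adjusted p = 0.404). J×B 2PN embryos had more Hsf1 than B×J 2PN embryos, with medians of 135 and 73.3 CPM, by 1.35 ± 0.17 (adjusted p = 6.51e-11). Of the 21, 18 lie above the B×J median and 10 above every B×J 2PN embryo. Without embryo 8 the difference was 0.80 (adjusted p = 2.74e-06). B×J uniparental embryos had 84.5 to 229 CPM, and all 8 lie above the B×J 2PN median. The difference of 0.52 ± 0.24 was not called (adjusted p = 0.107), but without embryo 8 of J×B 2PN, which is in neither group and enters the shared spread, it was 0.56 and called (adjusted p = 0.0292), as it was with DESeq2 size factors (0.77, adjusted p = 0.0147) and with the 2 groups fitted alone (0.61, adjusted p = 0.0125). Parthenotes had a median of 96.5 CPM and were not called (0.05 ± 0.16, adjusted p = 0.803). Neither 1PN group was called, with medians of 110 CPM in J×B and 83.8 CPM in B×J.

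Summed marker levels differed between the groups as well, and their part in the results above was not tested. The oocyte sum was 32600, 29600, 6230 and 6340 CPM in embryos 1, 2, 3 and 7 of J×B uniparental 1PN, against 2080 to 9850 CPM in J×B 2PN embryos. The 2-cell sum was 34.3, 460, 9620 and 8790 CPM in the same 4 embryos, against a median of 8330 CPM in J×B 2PN embryos. Embryos 3 and 7 lie inside the J×B 2PN range for both sums. They lie above the J×B 2PN median of 4070 CPM for the oocyte sum and above that of 8330 CPM for the 2-cell sum. Embryos 1 and 2 lie outside the J×B 2PN range in both sums. The oocyte sum was 7010 to 29100 CPM in B×J uniparental 1PN, 4390 to 11300 CPM in parthenotes and 3440 to 9930 CPM in B×J 2PN embryos. The 2-cell sum had medians of 4610 CPM in B×J uniparental 1PN, 5930 CPM in parthenotes and 6070 CPM in B×J 2PN embryos. In J×B and B×J 2PN embryos the 2-cell medians were 8330 and 6070 CPM and the oocyte medians 4070 and 5560 CPM. The cumulus and granulosa sum had a median of 47.6 CPM (22.4 to 93.7) in J×B uniparental 1PN and 201 CPM (48.8 to 364) in J×B 2PN embryos. It had a median of 119 CPM (56.9 to 255) in B×J uniparental 1PN, 186 CPM (85.9 to 481) in parthenotes and 207 CPM (60.0 to 507) in B×J 2PN embryos. In J×B 1PN, where 5 of the 15 markers had counts, its median was 226 CPM. The sum was not split by gene, and whether its counts come from cumulus cells or from the embryo was not tested. Blood and immune markers, 6 of 9 of which were in the table, summed to a median of 6.66 CPM (0 to 29.7) in J×B uniparental 1PN and 36.9 CPM (0 to 156) in J×B 2PN embryos. That sum had a median of 89.9 CPM (3.55 to 271) in B×J uniparental 1PN, 130.0 CPM (30.1 to 516) in parthenotes and 29 CPM (0.813 to 164) in B×J 2PN embryos. Of these 6 markers, Lyz2 and Tyrobp were at 0 in every J×B uniparental embryo and Tyrobp in every B×J uniparental embryo.

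Within single groups the same measures could be set against each gene without the group differences. This was done on log2(CPM + 1) in the 3 groups of over 20 embryos, for 90 relations with depth, oocyte sum and 2-cell sum, with 2-sided permutation tests adjusted over the 90. Both tests called 9 of the 90, and Pearson's taken by itself called 18. The smallest p the resamples can give is 1e-05 before adjustment. Hspa1a rose with the 2-cell sum over 43 B×J 2PN embryos, with Pearson's r = 0.66 (adjusted p = 0.0009) and Spearman's rho = 0.66 (adjusted p = 0.0009). Without the 2 embryos farthest from the median 2-cell sum, r was 0.59. Hspa1b did so too, with r = 0.45 (adjusted p = 0.0169) and rho = 0.48 (adjusted p = 0.0218), and r = 0.39 without 2 embryos. Over 31 parthenotes the relation of Hspa1a was not called, with r = 0.04 (adjusted p = 0.904) and rho = 0.21 (adjusted p = 0.423), and r was 0.44 without 2 embryos. Over 21 J×B 2PN embryos neither copy was called, with r = 0.23 (adjusted p = 0.481) and rho = 0.30 (adjusted p = 0.351) for Hspa1a, and r = -0.13 (adjusted p = 0.751) and rho = -0.02 (adjusted p = 0.975) for Hspa1b. Hsf1 went with the oocyte sum in B×J 2PN embryos, with r = 0.63 (adjusted p = 0.0009), rho = 0.57 (adjusted p = 0.0027) and r = 0.55 without 2 embryos. In J×B 2PN embryos that relation was called by r, at 0.64 (adjusted p = 0.0165), and not by rho, at 0.55 (adjusted p = 0.0826), and r was 0.44 without 2 embryos. Hspa5 went against the oocyte sum in B×J 2PN embryos, with r = -0.47 (adjusted p = 0.0169), rho = -0.47 (adjusted p = 0.0274) and r = -0.37 without 2 embryos. In J×B 2PN embryos Hspa5 had the other sign and was not called, with r = 0.36 (adjusted p = 0.242), rho = 0.32 (adjusted p = 0.327) and r = 0.06 without 2 embryos. Hspa1b too went against the oocyte sum in B×J 2PN embryos, with r = -0.49 (adjusted p = 0.0148), rho = -0.50 (adjusted p = 0.0218) and r = -0.42 without 2 embryos. Hsph1 went against the oocyte sum over 21 J×B 2PN embryos, with r = -0.79 (adjusted p = 0.0012), rho = -0.665 (adjusted p = 0.0218) and r = -0.785 without 2 embryos. In B×J 2PN embryos it was not called, with r = -0.23 (adjusted p = 0.279) and rho = -0.08 (adjusted p = 0.772), and r was 0.03 without 2 embryos. Hspd1 went against the 2-cell sum in J×B 2PN embryos, with r = -0.64 (adjusted p = 0.0169), rho = -0.61 (adjusted p = 0.0422) and r = -0.67 without 2 embryos. The CPM share their denominator with both sums, and the number of counts also moved with Hspa8 in B×J 2PN embryos (r = 0.62, adjusted p = 0.00382; rho = 0.45, adjusted p = 0.0289; r = 0.33 without 2 embryos). It moved with Hspa1a in parthenotes, with r = -0.525 (adjusted p = 0.0169), rho = -0.51 (adjusted p = 0.0411) and r = -0.435 without 2 embryos. In J×B 2PN embryos Hspe1 rose as the number of counts fell. That relation was called by r, at -0.58 (adjusted p = 0.0322), and not by rho, at -0.465 (adjusted p = 0.127), and r was -0.54 without 2 embryos.

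**Figure D4:**
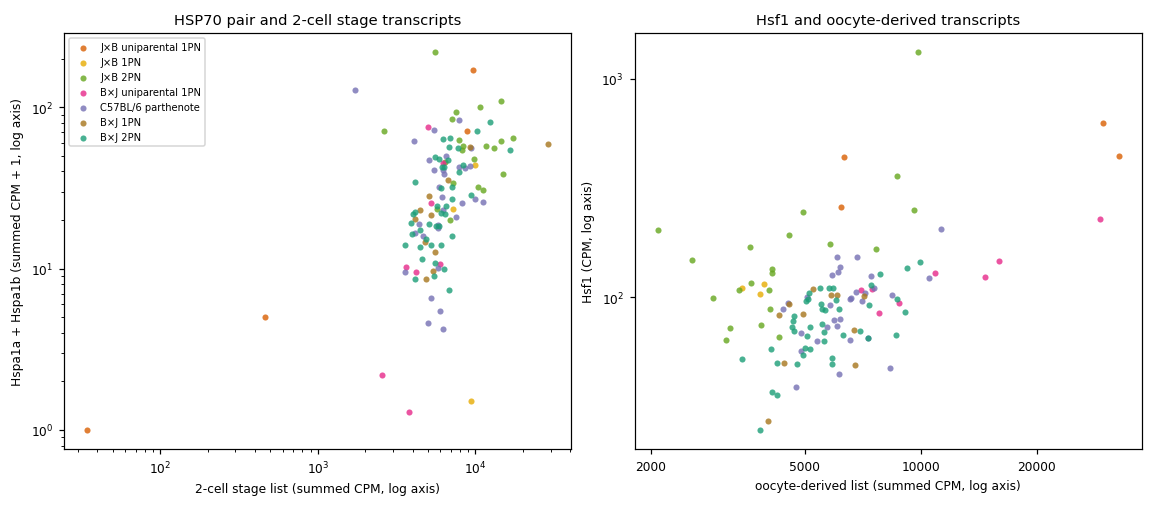
Left, summed CPM plus 1 of Hspa1a and Hspa1b against the summed CPM of 2-cell stage transcripts; right, Hsf1 against the summed CPM of oocyte-derived transcripts (all log axes), 1 point per embryo, coloured by group. The J×B uniparental embryos 1 and 2 sit at the far left of the plot against 2-cell transcripts, at 34.3 and 460 CPM, and at the far right of the plot against oocyte-derived transcripts, at 32600 and 29600 CPM.

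The 10 genes were also set against each other within those 3 groups, in 135 relations. Both tests called 4 relations. Hspa1a and Hspa1b rose together over 43 B×J 2PN embryos, with r = 0.66 (adjusted p = 0.000675), rho = 0.69 (adjusted p = 0.00045) and r = 0.63 without 2 embryos. That pair was not called in parthenotes, with r = 0.43 (adjusted p = 0.0923) and rho = 0.44 (adjusted p = 0.119). Nor was it called in J×B 2PN embryos, with r = 0.59 (adjusted p = 0.0537), rho = 0.46 (adjusted p = 0.197) and r = 0.37 without 2 embryos. The part of shared reads in the relation of the 2 copies was not tested. Hspa8 and Hsp90ab1, both constitutive, rose together in B×J 2PN embryos, with r = 0.69 (adjusted p = 0.000675), rho = 0.78 (adjusted p = 0.00045) and r = 0.73 without 2 embryos. They did so again over 31 parthenotes, with r = 0.55 (adjusted p = 0.0273), rho = 0.72 (adjusted p = 0.00045) and r = 0.69 without 2 embryos. In J×B 2PN embryos they were not called, with r = 0.54 (adjusted p = 0.0818), rho = 0.27 (adjusted p = 0.585) and r = 0.16 without 2 embryos. Hspd1 and Hspe1 rose together in parthenotes, with r = 0.62 (adjusted p = 0.00855), rho = 0.57 (adjusted p = 0.0334) and r = 0.66 without 2 embryos. In B×J 2PN embryos that pair was called by r, at 0.53 (adjusted p = 0.0223), and not by rho, at 0.38 (adjusted p = 0.115). There r was 0.415 without 2 embryos. In J×B 2PN embryos the pair had r = -0.04 (adjusted p = 0.929) and rho = -0.08 (adjusted p = 0.842). Over the 45 pairs of a group the median r was -0.00 in B×J 2PN embryos, 0.03 in parthenotes and 0.11 in J×B 2PN embryos.

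The inducible pair was also the most variable among embryos of 1 group. The biological coefficient of variation that edgeR estimated was 90.2% for Hspa1a and 84.9% for Hspa1b. For genes of like level the trend was 84.2% and 73.0%. Of the 500 genes of closest level, 70.4% varied less than Hspa1a and 82.4% less than Hspa1b. Hspd1, at 37.2%, was among the steadier genes, since 7% of the 500 genes of closest level varied less. Hspe1 at 42.96%, Hsp90aa1 at 36.97% and Hsp90ab1 at 38.99% also lay under their trend values of 60.6%, 53.9% and 53.6%.

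As a description with no test, the genes with the most similar pattern over all kept embryos were ranked by Spearman's rho. The ranking took in the 7941 genes that averaged 10 CPM or more and passed a filter on names. Pseudogenes and genes with provisional names, such as Gm or Rik numbers, were left out. These rho values mix differences between groups with those within them. The summed inducible pair was most like Brd2 (rho = 0.609), Pif1 (rho = 0.579) and the 2-cell gene Tcstv1 (rho = 0.525). Hsp90ab1 was most like Rps2 (rho = 0.789), Npm1 (rho = 0.782) and Rps10 (rho = 0.759), a ribosomal protein, a nucleolar protein and another ribosomal protein. Hsp90aa1 was most like Dnajb9 (rho = 0.726), a co-chaperone of the endoplasmic reticulum, followed closely by H2afz (rho = 0.711) and Hmgb2 (rho = 0.71), which are not chaperones. Hspe1 was most like Mzt1 (rho = 0.695) and Hsf1 most like Tiam1 (rho = 0.697).

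Other chaperones were read from 8 lists with 131 genes, of which 124 were tested. In J×B uniparental 1PN against 2PN, 15 of the 124 were called higher and 42 lower, 46.0% of them against 31.7% of all genes tested, with a median log2 fold change of -0.59, against -0.52 over all genes. Without embryos 1 and 2, 4 of 125 tested were called higher and 12 lower, 12.8% against 8.99% of all genes, 3.12% higher and 5.86% lower. In B×J uniparental 1PN against 2PN, 10 were called higher and 25 lower, 28.2% against 22.4% of all genes, with a median of -0.26, against 0.19. In parthenotes against B×J 2PN, 27 were called higher and 33 lower, 48.4% against 44.4% of all genes, with a median of -0.03, against 0.19. In J×B 2PN against B×J 2PN, 25 were called higher and 38 lower, 50.8% against 40.2% of all genes, with a median of -0.11, against -0.06. Neither 1PN comparison called any of the 124 in edgeR.

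For the TRiC chaperonin and its partner prefoldin, which fold actin and tubulin, 15 genes were tested. In J×B uniparental 1PN 2 were higher and 7 lower, where 11% of all genes were called higher and 20.7% lower. Cct3, a TRiC subunit, was among the lower ones (-2.53 ± 0.48, adjusted p = 1.46e-05). Without embryos 1 and 2 it was the only call of the 15 (-1.48 ± 0.47, adjusted p = 0.0294), 6.67% of them against 8.99% of all genes. In B×J uniparental 1PN 0 were higher and 6 lower, where 12.1% of all genes were called higher and 10.2% lower, and the 6 include Cct5 (-1.03 ± 0.25, adjusted p = 0.00168) and Pfdn2 (-1.24 ± 0.32, adjusted p = 0.00248). In parthenotes 2 were higher and 7 lower, where 24.8% of all genes were called higher and 19.6% lower, and the 7 include Pfdn6 (-1.63 ± 0.21, adjusted p = 4.99e-11) and Cct5 (-1.12 ± 0.15, adjusted p = 2.47e-10). The list median was -0.56 in J×B uniparental 1PN, -0.52 in B×J uniparental 1PN and -0.32 in parthenotes, against -0.52, 0.19 and 0.19 over all genes.

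Of 17 co-chaperones of HSP90, 5 fell and 2 rose in J×B uniparental 1PN (41.2%, against 31.7% of all genes). Without embryos 1 and 2 the counts were 2 and 0 (11.8%, against 8.99%). For B×J uniparental 1PN 3 fell and 2 rose (29.4%, against 22.4%), and in parthenotes 4 fell and 2 rose (35.3%, against 44.4%). Stip1, which links HSP70 to HSP90, changed by -0.77 ± 0.24 in B×J uniparental 1PN (adjusted p = 0.012) and by -0.77 ± 0.14 in parthenotes (adjusted p = 1.9e-06). Sugt1, another co-chaperone, fell in all 3 comparisons, with log2 fold changes of -1.83 ± 0.41 in J×B uniparental 1PN (adjusted p = 0.000188), -1.08 ± 0.27 in B×J uniparental 1PN (adjusted p = 0.00204) and -0.60 ± 0.15 in parthenotes (adjusted p = 0.00071). Its J×B value without embryos 1 and 2 was -1.50 ± 0.53 (adjusted p = 0.0565), which is not called. Of 24 DnaJ co-chaperones tested, which bring substrates to HSP70, 8 fell and 2 rose in J×B uniparental 1PN (41.7%, against 31.7% of all genes). Without embryos 1 and 2 the counts were 3 and 1 of 25 (16%, against 8.99%). In B×J embryos 7 fell and 1 rose (33.3%, against 22.4%), and 7 fell and 5 rose in parthenotes (50%, against 44.4%). Dnajb4 was the one that rose in B×J, by 1.37 ± 0.36 (adjusted p = 0.00312). It rose in J×B by 2.89 ± 0.48 (adjusted p = 8.25e-07), and by 2.16 ± 0.65 without embryos 1 and 2 (adjusted p = 0.0194).

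Of 9 heat shock factors and regulators tested, 3 rose and 3 fell in J×B uniparental 1PN (66.7%, against 31.7% of all genes). Without embryos 1 and 2 the counts were 1 and 0 (11.1%, against 8.99%). For B×J uniparental 1PN 2 rose and 1 fell (33.3%, against 22.4%), and in parthenotes 2 rose and 2 fell (44.4%, against 44.4%). Hsbp1, an HSF1-binding protein, rose in all 3 comparisons. Its log2 fold change was 1.71 ± 0.32 in J×B uniparental 1PN (adjusted p = 1.21e-05), 1.32 ± 0.23 in B×J uniparental 1PN (adjusted p = 8.76e-06) and 0.57 ± 0.16 in parthenotes (adjusted p = 0.00153). Without embryos 1 and 2 the J×B value was 1.33 ± 0.44 (adjusted p = 0.0361). Sirt1, a deacetylase known to act on HSF1, fell in the same comparisons, with log2 fold changes of -1.97 ± 0.38 in J×B uniparental 1PN (adjusted p = 1.5e-05), -1.09 ± 0.25 in B×J uniparental 1PN (adjusted p = 0.000561) and -0.78 ± 0.14 in parthenotes (adjusted p = 2.14e-06). Its J×B call was lost without embryos 1 and 2 (-1.15 ± 0.45, adjusted p = 0.09). Of 5 small heat shock proteins tested, 1 rose and 1 fell in J×B uniparental 1PN (40%, against 31.7% of all genes). Without embryos 1 and 2 only Hspb8 was called, and it rose (7.55 ± 1.38, adjusted p = 8.44e-05), 20% against 8.99%. That value rests on the 2 uniparental embryos left. The CPM of Hspb8 are not given here, so whether it lay near 0 in J×B 2PN embryos is not shown. In B×J uniparental 1PN 1 rose and 0 fell (20%, against 22.4%), and in parthenotes 3 rose and 0 fell (60%, against 44.4%).

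Of 21 genes of the endoplasmic reticulum list, which stand beside Hspa5, 2 rose and 8 fell in J×B uniparental 1PN (47.6%, against 31.7% of all genes). Without embryos 1 and 2 the counts were 1 and 3 (19%, against 8.99%). For B×J uniparental 1PN 3 rose and 2 fell (23.8%, against 22.4%), and in parthenotes 6 rose and 3 fell (42.9%, against 44.4%). Manf, a secreted factor of the unfolded protein response, fell in both uniparental groups, with log2 fold changes of -2.49 ± 0.42 in J×B (adjusted p = 1.59e-06) and -0.88 ± 0.26 in B×J (adjusted p = 0.00969). Without embryos 1 and 2 the J×B value was -2.01 ± 0.55 (adjusted p = 0.00954). Atf6, a sensor of that response, rose by 1.70 ± 0.46 in B×J uniparental 1PN (adjusted p = 0.00456) and by 1.48 ± 0.32 in parthenotes (adjusted p = 5.37e-05). Of 14 mitochondrial chaperones and proteases, which stand beside Hspd1 and Hspe1, 1 rose and 6 fell in J×B uniparental 1PN (50%, against 31.7%). Without embryos 1 and 2 the counts were 0 and 1 (7.14%, against 8.99%). For B×J uniparental 1PN 0 rose and 2 fell (14.3%, against 22.4%), and in parthenotes 2 rose and 5 fell (50%, against 44.4%). Clpx, a mitochondrial unfoldase, fell in all 3, with log2 fold changes of -2.08 ± 0.48 in J×B uniparental 1PN (adjusted p = 0.000334), -1.16 ± 0.31 in B×J uniparental 1PN (adjusted p = 0.00436) and -1.08 ± 0.18 in parthenotes (adjusted p = 3.58e-07). Its J×B call too was lost without embryos 1 and 2 (-1.04 ± 0.52, adjusted p = 0.219). In J×B 2PN against B×J 2PN, 2 of those 14 rose and 8 fell (71.4%, against 40.2%), among them Lonp1, a protease that rose (1.39 ± 0.21, adjusted p = 2.49e-08), and Trap1, the mitochondrial HSP90 (-1.32 ± 0.24, adjusted p = 3.1e-06). Whether any list was called more often than other genes was not tested.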

How the data were processed

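Single 2-cell embryos were sequenced after SMART-Seq v4 amplification and Nextera XT library preparation, per the labels' protocols. The authors deposited 1 table of estimated counts per gene, in which 28.4% of the values above 0 are not whole numbers. Per the submitters' processing notes, HISAT2 2.0.5, featureCounts 2.0.0 and GRCm38 were used. Nothing states the annotation, whether strand was used, or how shared reads were counted. Ensembl IDs were matched to symbols for 43266 of 43421 genes. One dead embryo and 3 of low quality, as labelled, were left out.

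Values were rounded to whole counts and fitted over all 7 groups with edgeR 4.0.16 in R 4.3.3 (TMM, filterByExpr, quasi-likelihood test, Benjamini-Hochberg adjustment over 24380 genes, threshold 0.05). CPM are counts over an embryo's total. Relations between genes used 100000 resamples with scipy 1.17.1. Other tools were DESeq2 1.42.0 and limma 3.58.1. The fit was tested on simulated data. No 2 libraries of a group agreed within sampling noise. Named genes are the 10 heat shock genes and, in each other list, from those with the 3 smallest adjusted p-values in the comparison, and for likeness the genes of highest rho. The genes and lists were chosen with earlier results of these data known. Alternatives were another scaling, test, filter and depth minimum, fewer groups, a replicate block and leaving out embryos. Leaving out J×B 2PN embryo 8, each B×J uniparental embryo, and embryos 1 and 2 for the other lists was chosen after seeing the data.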

Additional observations from a re-analysis of the deposited data

Results flagged for a closer look

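Hsf1 in embryo 10 of B×J uniparental 1PN was 228.6 CPM, and the gap to the next highest of the 8 embryos was too large for its group by Dixon's criterion. Of 20 groups of values tested this way, chance alone would flag about 1. The same embryo had an oocyte sum of 29100 CPM, the highest of its group, and Hspa1a at 0. The part of these values in the result was not tested.

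The difference in Hspe1 between uniparental 1PN and 2PN embryos was larger in J×B than in B×J by 1.682 on the log2 scale. It was tested as an interaction in edgeR (adjusted p = 0.00178). Strain and uniparental origin cannot be told apart in it. All 4 J×B and 7 of 8 B×J uniparental embryos lay above the median of their 2PN group. Without J×B uniparental embryos 1 and 2, whose stage sums stood apart, the difference was 1.06 (adjusted p = 0.258).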

How the results depend on the processing

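Over 100 values of a gene in a comparison and 26 alternatives, DESeq2 left 92 on the same side of the threshold and DESeq2 size factors 91. These size factors moved the median of all genes by 0.219 in B×J uniparental 1PN, 0.276 in J×B uniparental 1PN and 0.199 in parthenotes, so changes are read relative to that.

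Called genes in B×J uniparental 1PN against 2PN numbered 4, and 2 to 6 when 1 embryo was left out. In J×B uniparental 1PN against 2PN they numbered 6, 2 with the groups compared alone, and 3 to 6 with 1 embryo left out. Without embryos 1 and 2 the number was 1, where 8.99% of all genes were called. B×J uniparental 1PN against parthenotes gave 1 with the groups compared alone and 1 without those 2 embryos, Hspa5 in both. Against B×J 1PN it gave 2, then 1 with no filter, 1 with the groups compared alone, and 1 to 3 with 1 embryo left out. The cross difference gave 1 (Hspe1), 3 with limma voom (also Hspa5 and Hsph1), 0 without embryos 1 and 2, and 0 to 2 with 1 embryo left out. Apart from the 8.99% above, the share of all genes called under these alternatives is not given here. Relations between genes numbered 4, and 10 with TMM-scaled CPM.

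Replicate numbers did not pair the embryos (in parthenotes and B×J 2PN, 7 of 31 same-numbered embryos had deviations that correlated over 0.1). The replicate block gave 2 calls in B×J uniparental 1PN against 2PN (Hspe1 was 0.42, adjusted p = 0.371) and 1 against B×J 1PN, and left 91 of 100 values on the same side.

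Signs turned as follows, and the cause was not tested. In J×B uniparental 1PN against 2PN, Hspa1a was 0.29 without embryos 1 and 2, and Hspa1b was -2.88 with limma voom and -1.23 to 0.46 with 1 embryo left out. In B×J uniparental 1PN against parthenotes, leaving out 1 embryo gave -0.25 to 0.28 for Hspe1, -0.22 to 0.22 for Hsp90aa1 and -0.016 to 0.39 for Hsp90ab1. For the cross difference limma voom gave -1.89 for Hspa1a and -1.49 for Hspa1b, neither called, and -2.84 for Hspa5, called (adjusted p = 5.61e-05). Leaving out 1 embryo gave -1.25 to 0.85 for Hspa1a, -0.60 to 1.18 for Hspa1b and -0.94 to 0.39 for Hspa5, and Hspa8 was 0.61 without embryos 1 and 2.

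The J×B groups of 3 and 4 embryos gave the widest intervals, so a difference that was not called there is not shown to be absent.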

Other observations

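Embryos left out for their labels were measured too. The dead B×J 1PN embryo had Hspa1a and Hspa1b at 0, where 3 counts would be 0.846 CPM. Its Hspa5 was 7.33 CPM, its Hsph1 1.13 CPM and its Hsf1 429.8 CPM, with an oocyte sum of 28200 CPM and a 2-cell sum of 112 CPM. Of the 2 B×J 1PN embryos labelled low quality, embryo 6 had 145 CPM of Hspa5, 393 CPM of Hsf1 and an oocyte sum of 28900 CPM. The other, embryo 8, had 302 CPM of Hspa5 and 54.1 CPM of Hsf1.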
